A study of Mus musculus with 2 samples.

Results

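Tmem176a and Tmem176b are adjacent genes on mouse chromosome 6, and they are described here through the openness of their chromatin in single liver nuclei. Both genes, 2 of 21887 annotated protein-coding genes, were chosen by their measured fragment levels in Kupffer and endothelial cells within and between the 2 libraries, so those levels and ratios are given as a description. Single-cell ATAC-seq, in which the Tn5 transposase cuts open DNA and each pair of cuts gives a fragment carrying a cell barcode, was run on nuclei of digested, perfused liver after bead enrichment for F4/80, a macrophage surface protein. One untreated male Spta sph/sph mouse and one untreated male Spta wt/wt littermate, both 8 to 10 weeks old, gave 1 library each. Spta encodes alpha-spectrin of the red cell skeleton, and both animals carry their genotype in every cell. The deposited barcodes end in 2 or 1, and neither the labels nor the files tie an ending to a genotype, so the values below belong to library 2 and library 1 and no genotype is compared.

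TMEM176A and TMEM176B are small multi-pass membrane proteins related to the MS4A family, which includes the B cell protein CD20. They are known as cation channels of intracellular, endolysosomal compartments, and TMEM176B is known for restraining inflammasome activity and for roles in dendritic cells, including the handling of MHC class II antigen. Kupffer cells are the resident macrophages of the liver sinusoids, and sinusoidal endothelial cells line the same vessels.

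Among called barcodes, 575 in library 2 and 637 in library 1, the filters kept 562 and 609, and 0 were shared. The median called cell had 13186 unique fragments in library 2 and 13220 in library 1, but a median of 53.7% of them lay in the authors' peaks in library 2 and 72.1% in library 1. Each library was clustered with chromosome 6 left out. The Kupffer-like class held 267 cells in 1 cluster of library 2 and 334 cells in 2 clusters of library 1, and the endothelial-like class held 151 cells of library 2 and 128 cells of library 1. Of the 12 Kupffer markers that named the first class, 10 had at least a log2 ratio of 1 over endothelial-like cells in library 2 and all 12 in library 1. Of the 14 endothelial markers, 10 had a log2 ratio of -1 or less in each library. Stellate or fibroblast-like cells numbered 26 and 67 in libraries 2 and 1, hepatocyte-like cells 28 in library 1, and cells of clusters left unnamed 118 and 52 in libraries 2 and 1.

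In the GRCm38 build Tmem176b spans chr6:48833811-48845948 and Tmem176a spans chr6:48841483-48845364. Tmem176b is read from the minus strand and Tmem176a from the plus strand. The annotated span of Tmem176b encloses that of Tmem176a, and the starts listed for both genes in the promoter table lie close together, at 48840988 to 48841374 for Tmem176b and 48841483 and 48841656 for Tmem176a. The pair was counted over the gene bodies with 2000 bases on both sides, and because the Tmem176b window encloses that of Tmem176a it stands for both. The RefSeq promoter table holds 2 start windows for Tmem176a and 3 for Tmem176b, each with 250 bases before the start and 50 after it. Below are the upstream Tmem176a window, chr6:48841233-48841532 on the plus strand, which contains the 100 bases with most cuts at the locus, and the Tmem176b window chr6:48840939-48841238 on the minus strand, which covers the neighbouring group of cuts. Capitals mark GGAAGT or its reverse complement ACTTCC, the core bound by ETS factors, a family that includes PU.1 of macrophages and several endothelial regulators.
Tmem176a promoter: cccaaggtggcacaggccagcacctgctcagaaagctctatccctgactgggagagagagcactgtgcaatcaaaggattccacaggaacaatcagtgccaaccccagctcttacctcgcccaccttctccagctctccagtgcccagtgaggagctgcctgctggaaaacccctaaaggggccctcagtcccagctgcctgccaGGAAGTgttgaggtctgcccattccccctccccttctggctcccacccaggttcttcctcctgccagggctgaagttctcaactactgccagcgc
Tmem176b promoter: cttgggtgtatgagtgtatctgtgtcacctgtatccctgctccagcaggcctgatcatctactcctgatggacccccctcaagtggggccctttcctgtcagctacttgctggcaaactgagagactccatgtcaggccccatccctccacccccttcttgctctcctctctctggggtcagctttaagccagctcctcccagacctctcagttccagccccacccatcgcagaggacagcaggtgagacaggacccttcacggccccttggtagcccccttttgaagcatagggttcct
The Tmem176a window has 1 such core, at chr6:48841438-48841443, inside the stretch with most cuts, and the Tmem176b window printed here has 0. Of the windows not printed, the other Tmem176a window and the Tmem176b window chr6:48841325-48841624, which overlap, hold the same 2 cores, that one and chr6:48841565-48841570, and the remaining Tmem176b window holds 0. Of 32851 mouse promoter windows of the same length, 23.8% hold the core on either strand. The AP-1 motif TGANTCA, found in 7.81% of all windows on either strand, had no match in any of the 5 windows of the pair. Nor did the nuclear receptor half-site AGGTCA, found in 16.3% of all windows, the GATA motif GATAAG, found in 7.44%, the E-box CACGTG, found in 7.15%, or the TATA box TATAAA, found in 13.6%. GC made up 59.7% of the Tmem176a window and 58.0% of the Tmem176b window, against a median of 52.7% over all windows. Each held 2 CpG dinucleotides, against a median of 7.

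The class with the more open pair was not the same in the 2 libraries. Library 2 had 49 fragments at the pair in Kupffer-like cells, or 12.2 CPM, which here is fragments scaled to the total of their class (95% exact Poisson interval 9.05 to 16.2), and 75 in endothelial-like cells, or 33.5 CPM (26.4 to 42.0). Library 1 had 220 fragments in Kupffer-like cells, or 38.0 CPM (33.2 to 43.4), and 20 in endothelial-like cells, or 12.4 CPM (7.55 to 19.1). Kupffer-like cells of library 2 and endothelial-like cells of library 1 were thus low and alike in level, and the other pair of groups was high. With 1 library per animal there is no replicate and no test, and all intervals cover counting error only.

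Set against the median gene, the Kupffer-like over endothelial-like log2 ratio of the pair was -1.41 (interval -1.97 to -0.88) in library 2 and 1.60 (0.97 to 2.37) in library 1. Among all genes with at least 50 fragments over the compared sums, 9.77% were lower by a log2 ratio of 1 or more in library 2 and 10.8% higher, and in library 1 these shares were 9.46% lower and 12.1% higher. Between libraries, library 2 over library 1, the ratio was -1.36 (-1.85 to -0.92) in Kupffer-like cells and 1.63 (0.93 to 2.45) in endothelial-like cells. For all genes, 3.01% were lower and 9.13% higher by that much in Kupffer-like cells, and 2.52% lower and 7.79% higher in endothelial-like cells. In Kupffer-like cells 0.840% of 15829 genes lay below the pair, and in endothelial-like cells 3.30% of 13008 genes lay above it. With every cell thinned to 5000 fragments, the class ratio was -0.60 (-1.67 to 0.50) in library 2, from 18 Kupffer-like and 15 endothelial-like fragments, and 1.32 (0.33 to 2.67) in library 1. Library 2 over library 1, the thinned ratio was -1.18 (-2.05 to -0.43) in Kupffer-like cells and 0.71 (-0.58 to 2.19) in endothelial-like cells, from 15 and 8 fragments. At equal depth per cell, the class ratio of library 2 and the endothelial-like ratio between libraries thus kept their sign, but were short of 1 and had intervals that include 0.

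**Figure D1:**
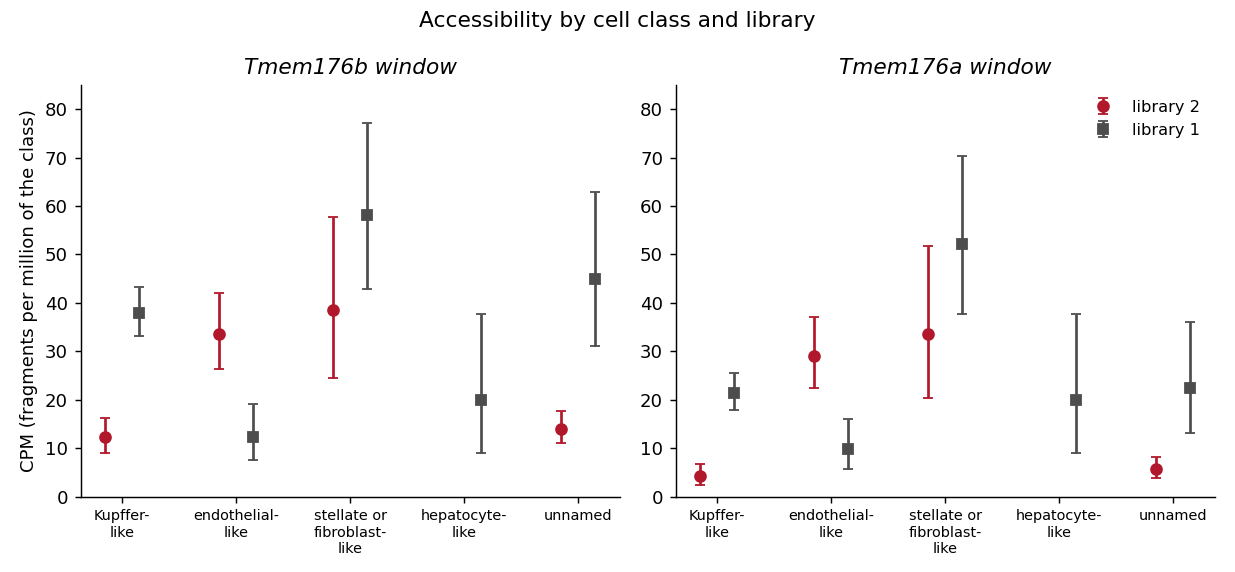
CPM (y axis) in the windows of Tmem176b, which encloses the pair, and of Tmem176a, by cell class (x axis); circles are library 2, squares are library 1 and bars are 95% exact Poisson intervals for counting error. In Kupffer-like cells the pair window is at 12.2 in library 2 and 38.0 in library 1, and in endothelial-like cells at 33.5 and 12.4.

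In the narrower Tmem176a window the class ratio was farther from 0 in library 2 and nearer to 0 in library 1. It held 17 fragments in Kupffer-like and 65 in endothelial-like cells of library 2, or 4.24 and 29.0 CPM, and 124 in Kupffer-like and 16 in endothelial-like cells of library 1, or 21.4 and 9.89 CPM. The Kupffer-like over endothelial-like log2 ratio was -2.71 (-3.60 to -1.95) in library 2 and 1.09 (0.37 to 1.98) in library 1. Between libraries it was -2.04 (-2.90 to -1.34) in Kupffer-like cells and 1.74 (0.97 to 2.66) in endothelial-like cells.

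The level of the pair window was highest in stellate or fibroblast-like cells, which store vitamin A or make matrix, at 38.5 CPM (24.4 to 57.8; 23 fragments) in library 2 and 58.2 (42.9 to 77.2; 48 fragments) in library 1. In library 2 they were followed by endothelial-like cells at 33.5, the unnamed cluster at 14.0 (11.0 to 17.6) and Kupffer-like cells at 12.2. In that order the first 2 classes overlapped in their intervals, as did the last 2, and the 2 sets were apart. In library 1 the order was stellate or fibroblast-like, unnamed at 45.0 (31.2 to 62.9), Kupffer-like at 38.0, hepatocyte-like at 19.9 (9.09 to 37.8) and endothelial-like at 12.4, and the intervals of each class and the next overlapped. Only the stellate or fibroblast-like class stayed at the top in both libraries. The 2 Kupffer-like clusters of library 1 were alike, at 40.5 (33.1 to 49.0) and 36.0 (29.7 to 43.2) CPM. The unnamed cells scored highest for monocyte markers in library 1. In library 2 they scored 0.81 for T cell markers and 0.73 for neutrophil markers, too close for a name. By single cells of that cluster, dendritic cell markers led in 26, neutrophil markers in 20 and T cell markers in 15. The leading genes of both unnamed clusters share Gpr141. The unnamed clusters were not compared with each other and are not treated as one class.

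At least 1 fragment of the pair window was found in 33 of 267 Kupffer-like cells (12.4%, Clopper-Pearson interval 8.66 to 16.9%) and 45 of 151 endothelial-like cells (29.8%, 22.6 to 37.8%) of library 2. In library 1 it was found in 151 of 334 Kupffer-like cells (45.2%, 39.8 to 50.7%) and 16 of 128 endothelial-like cells (12.5%, 7.32 to 19.5%). The median depth of these classes was 12458 and 10747 fragments in library 2 and 15989 and 10601 in library 1. After each cell was thinned to 5000 fragments, which left out 23, 17, 31 and 26 shallower cells, the shares were 4.92%, 10.4%, 19.1% and 7.84% in the same order. The thinned shares of Kupffer-like cells stayed apart between the libraries, whereas those of endothelial-like cells, 14 of 134 in library 2 and 8 of 102 in library 1, overlapped widely in their intervals. A single Kupffer-like cell of library 2 gave 11 of the 49 fragments, and the highest endothelial-like cell of that library gave 4 of 75.

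The pair's fragments lay in a few short stretches of open DNA, and these did not behave alike. Stretches were taken as runs of 100-base windows with at least 10 cuts over all kept cells, joined across gaps of up to 200 bases, a definition set after the data had been seen. The strongest, chr6:48840001-48841800, spans all 5 starts of the promoter table, is called the shared start here, and holds both printed promoters. It had 7 fragments in Kupffer-like and 59 in endothelial-like cells of library 2, and 108 in Kupffer-like and 15 in endothelial-like cells of library 1. In CPM these are 1.75 (0.703 to 3.60), 26.4 (20.1 to 34.0), 18.7 (15.3 to 22.5) and 9.27 (5.19 to 15.3). The start was thus nearly without fragments in Kupffer-like cells of library 2, where the 1 kb stretches between elements, at a mean of 1.30 fragments per kb, would give 2.34 fragments over the same length.

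At the shared start the Kupffer-like over endothelial-like log2 ratio was -3.79 (-5.26 to -2.75) in library 2 and 0.98 (0.23 to 1.91) in library 1. Between libraries, library 2 over library 1, it was -3.06 (-4.50 to -2.06) in Kupffer-like cells and 1.69 (0.89 to 2.65) in endothelial-like cells. Fragments came from 6 of 267 Kupffer-like cells (2.25%, 0.829 to 4.83%) and 41 of 151 endothelial-like cells (27.2%, 20.2 to 35.0%) of library 2, and from 86 of 334 Kupffer-like cells (25.7%, 21.1 to 30.8%) and 11 of 128 endothelial-like cells (8.59%, 4.37 to 14.9%) of library 1. Many cells therefore contributed wherever the level was high. Stellate or fibroblast-like cells had 18 fragments in library 2 and 35 in library 1, or 30.1 and 42.5 CPM.

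**Figure D2:**
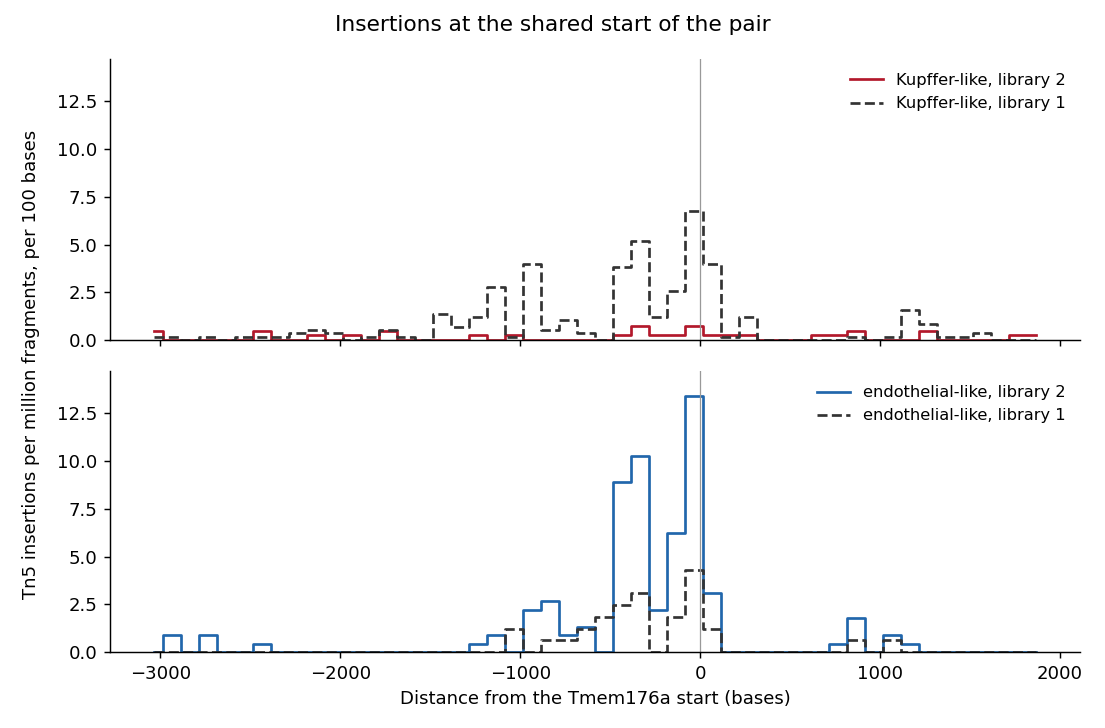
Tn5 cuts in CPM of the class, in 100-base windows (y axis) against distance from the Tmem176a start in bases (x axis), for Kupffer-like cells (top) and endothelial-like cells (bottom); solid lines are library 2 and dashed lines library 1. Cuts gather just before the start and over the printed Tmem176b promoter, except in Kupffer-like cells of library 2. No window has more than 3 cuts in those cells. Kupffer-like cells of library 1 have a further group to the left, with up to 23 cuts in a window. Endothelial-like cells of library 2 have up to 6 there.

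Within the stretch, 2 groups of cuts were shared by the classes open there. A further group upstream reached its most cuts in a window in Kupffer-like cells of library 1, but did not lead there in every window. The 100 bases chr6:48841401-48841500, which end just past the Tmem176a start, held 3 cuts in Kupffer-like and 30 in endothelial-like cells of library 2, and 39 and 7 in the same classes of library 1. Another group lies about 300 to 500 bases before that start, over the printed Tmem176b promoter, with up to 23 cuts in a window in endothelial-like cells of library 2 and up to 30 in Kupffer-like cells of library 1. Farther upstream, Kupffer-like cells of library 1 had 1 window with 23 cuts and 1 with 16, or 3.97 and 2.76 CPM. In those windows endothelial-like cells of library 2 had 5 and 2 cuts, or 2.23 and 0.893 CPM. Endothelial-like cells of library 1 and Kupffer-like cells of library 2 had 0 there. The window next to the first, on the side of the start, went the other way. It had 3 cuts in Kupffer-like cells of library 1 and 6 in endothelial-like cells of library 2, or 0.518 and 2.68 CPM.

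In the fixed 1 kb grid the stretch chr6:48841001-48842000 gave the same directions. It held 6 and 48 fragments in Kupffer-like and endothelial-like cells of library 2 (log2 ratio -3.70, -5.32 to -2.58), and 71 and 11 in those of library 1 (0.81, -0.06 to 1.93). Over all 1 kb stretches of the genome with at least 50 fragments, 9.66% were lower in Kupffer-like cells by 1 or more in library 2. Its log2 ratio of library 2 over library 1 was -2.67 (-4.26 to -1.58) in Kupffer-like cells, where 13.9% of stretches were lower by 1 or more, and 1.83 (0.91 to 2.97) in endothelial-like cells, where 1.91% were higher by 1 or more.

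A stretch 11.6 kb before the Tmem176a start, chr6:48829701-48830900, followed the order of the shared start. It lies beyond the 3′ end of Tmem176b. It had 6 fragments in Kupffer-like and 26 in endothelial-like cells of library 2, or 1.50 (0.550 to 3.26) and 11.6 (7.59 to 17.0) CPM. In library 1 it had 39 and 3, or 6.74 (4.79 to 9.21) and 1.85 (0.382 to 5.42) CPM. In both classes the intervals of the libraries were apart. No pair of sums reached the 50 fragments set for a ratio.

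A stretch 8.8 kb before the start, chr6:48832301-48833200, was open in Kupffer-like cells of both libraries and nearly empty in the other named classes. Kupffer-like and endothelial-like cells had 21 and 2 fragments in library 2, or 5.24 (3.25 to 8.01) and 0.893 (0.108 to 3.23) CPM, and 81 and 3 in library 1, or 14.0 (11.1 to 17.4) and 1.85 (0.382 to 5.42) CPM. The library 1 log2 ratio of Kupffer-like over endothelial-like cells was 2.71 (1.33 to 5.23), and the 1 kb stretch that holds most of it had 2.66 (1.27 to 5.18). Over the genome, 38.1% of 1 kb stretches were higher in Kupffer-like cells by 1 or more in library 1. Stellate or fibroblast-like cells, with the highest level at the shared start, had 1 fragment here in each library. The unnamed clusters had 24 of their 5281365 fragments here in library 2 and 11 of 755145 in library 1. Kupffer-like cells had 4005532 and 5788100 fragments in all. Scaled to these totals, the unnamed clusters were near the Kupffer-like level in each library, so the stretch was not particular to Kupffer-like cells. The ratio of library 2 over library 1 in Kupffer-like cells was -1.13 (-1.92 to -0.45), nearer to 0 than the -3.06 at the shared start, and the intervals of those 2 ratios do not overlap.

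A stretch 23.4 kb before the start, chr6:48817901-48818200, beside the pseudogene Gm17834, was not lower in library 2 in Kupffer-like cells. Kupffer-like and endothelial-like cells had 35 and 8 fragments in library 2, or 8.74 (6.09 to 12.2) and 3.57 (1.54 to 7.04) CPM, and 36 and 9 in library 1, or 6.22 (4.36 to 8.61) and 5.56 (2.54 to 10.6) CPM. In Kupffer-like cells the log2 ratio of library 2 over library 1 was 0.75 (0.04 to 1.47). Kupffer-like cells of library 2 thus gave 5 times as many fragments in these 300 bases as in the 1800 bases of the shared start. The remaining stretches of the locus had at most 12 fragments in any of the 4 sums.

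**Figure D3:**
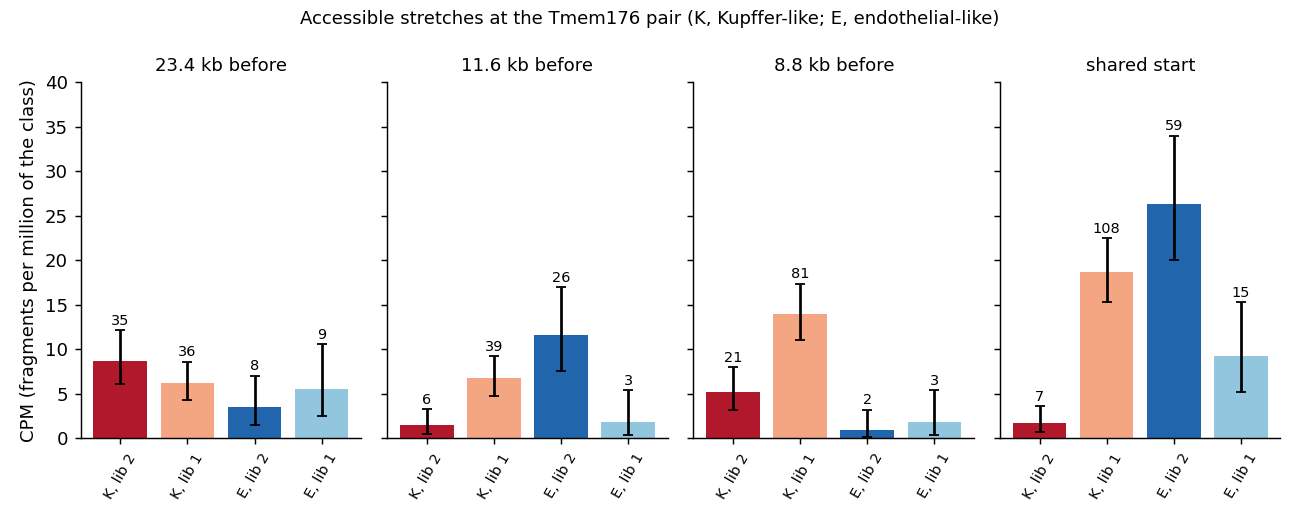
CPM of the class (y axis) in 4 accessible stretches, named by their distance from the Tmem176a start, in Kupffer-like (K) and endothelial-like (E) cells of libraries 2 and 1; bars carry 95% exact Poisson intervals and the number above each is its fragment count. The shared start and the stretch 11.6 kb before it are highest in endothelial-like cells of library 2 and low in Kupffer-like cells of library 2, whereas the other 2 stretches have fragments in Kupffer-like cells of both libraries.

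**Figure D4:**
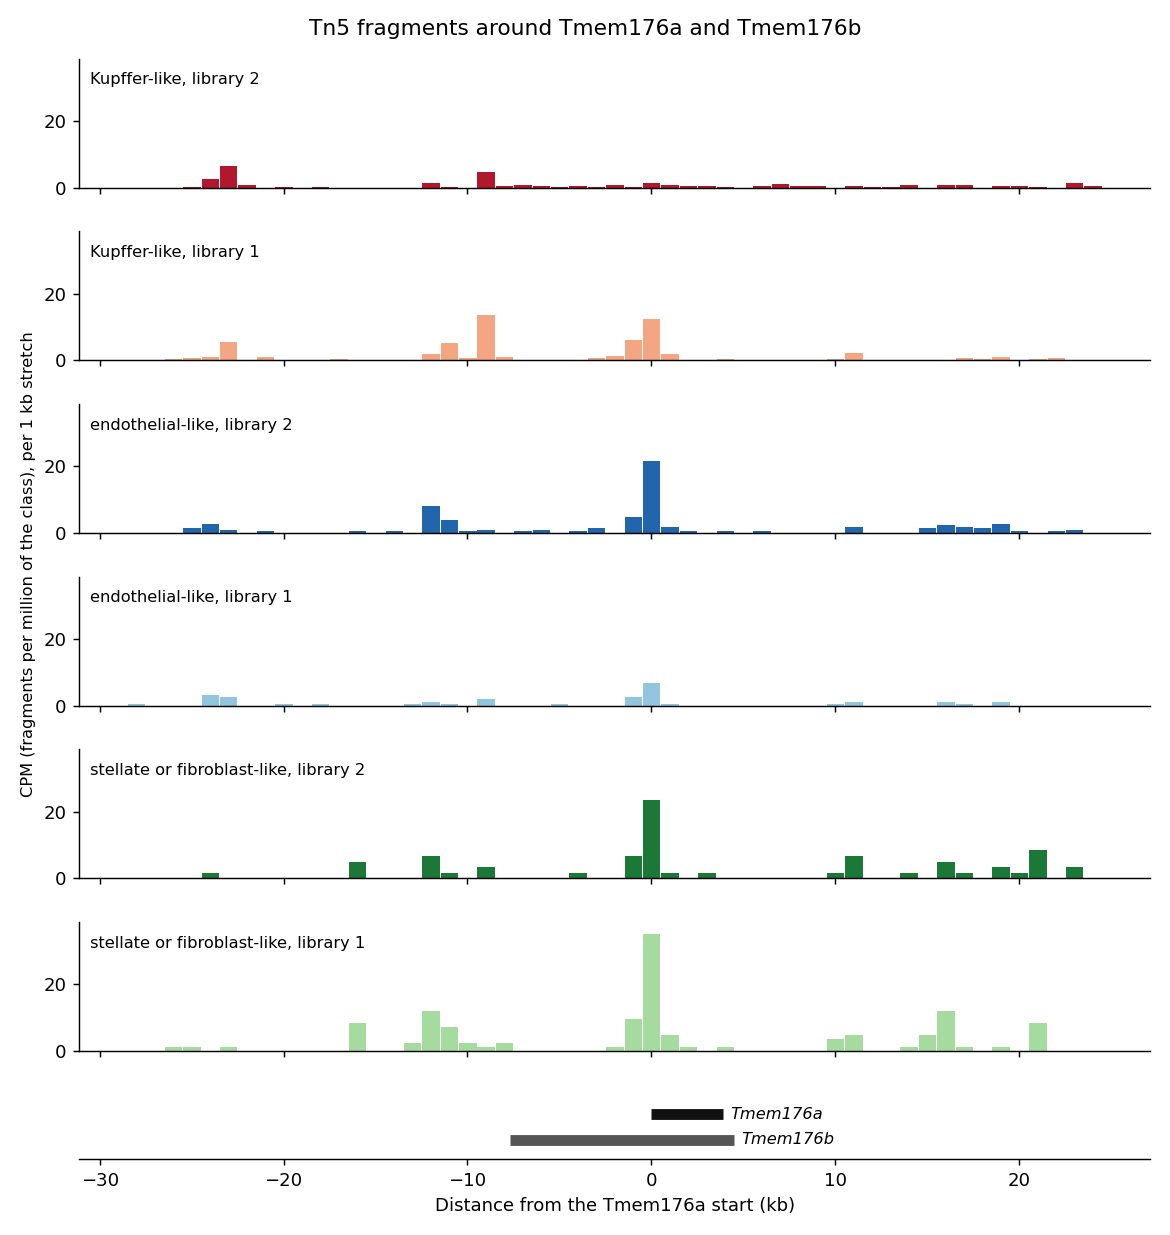
CPM of the class in 1 kb stretches (y axis, one scale for all panels) against distance from the Tmem176a start in kb (x axis), with the gene bodies at the bottom. The peak at 0 is seen in endothelial-like cells of library 2, Kupffer-like cells of library 1 and, in each library, the stellate or fibroblast-like class, and is nearly absent in Kupffer-like cells of library 2.

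The classes were named from the marker lists below. Each class leading in its own list therefore follows from the naming and is no test of the classes. The 12 Kupffer markers summed to 623 CPM in Kupffer-like and 161 in endothelial-like cells of library 2, and to 1104 and 155 in library 1. The 14 endothelial markers summed to 543 and 1433 CPM in those classes of library 2 and to 715 and 2678 in library 1. The 11 stellate or fibroblast markers, whose class had the highest level of the pair, summed to 271 and 239 in library 2 and to 235 and 224 in library 1. Both classes' own markers were lower in library 2, and all markers of these 3 lists had fragments in all 4 sums. Monocyte markers summed to 157 CPM in Kupffer-like cells of library 2 and 193 in those of library 1. Dendritic cell markers summed to 181 and 276 there and neutrophil markers to 91.6 and 136. In endothelial-like cells dendritic cell markers summed to 196 and 410. The Kupffer-like class was mixed by single-cell markers. Kupffer markers led in 92 of its 267 cells in library 2 and 89 of 334 in library 1. Neutrophil markers led in 33 and 54, monocyte markers in 13 and 38, and no list in 57 and 98.

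The same order was seen at the shared start in narrower sets of cells, chosen after the values were known. Among Kupffer-like cells whose Kupffer markers led all other lists, it had 4 fragments in 92 cells of library 2 (2.71 CPM, 0.738 to 6.94) and 25 in 89 cells of library 1 (16.2, 10.5 to 23.9). Among endothelial-like cells led by their own markers, it had 45 fragments in 74 cells of library 2 (37.2 CPM, 27.1 to 49.7) and 12 in 95 cells of library 1 (9.32, 4.82 to 16.3). Where 50% or more of a cell's fragments were in peaks, Kupffer-like cells had 5 fragments in library 2 and 105 in library 1, or 2.12 (0.688 to 4.94) and 19.0 (15.6 to 23.0) CPM. This cut kept 155 of 267 Kupffer-like cells in library 2 and 316 of 334 in library 1, and does not make the share in peaks equal. The part of the lower share in peaks of library 2 was not tested.

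A change of side between libraries was rare among genes. Of 14236 genes with enough fragments in both libraries, 1584 had a log2 ratio of 1 or more toward Kupffer-like cells in library 1, and 852 of those (53.8%) had it in library 2 as well. For 38 of them (2.40%), Tmem176a and Tmem176b included, the ratio was -1 or less in library 2. When the fragments of single cells that piled up in 1 region were masked, 3 of the 38 kept both sides, namely Tmem176a, Tmem176b and the helicase gene Ddx43. With the mask the library 2 ratio was -2.97 for Tmem176a and -1.53 for Tmem176b. The members were selected on this ratio, so these counts only place them among the genes.

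**Figure D5:**
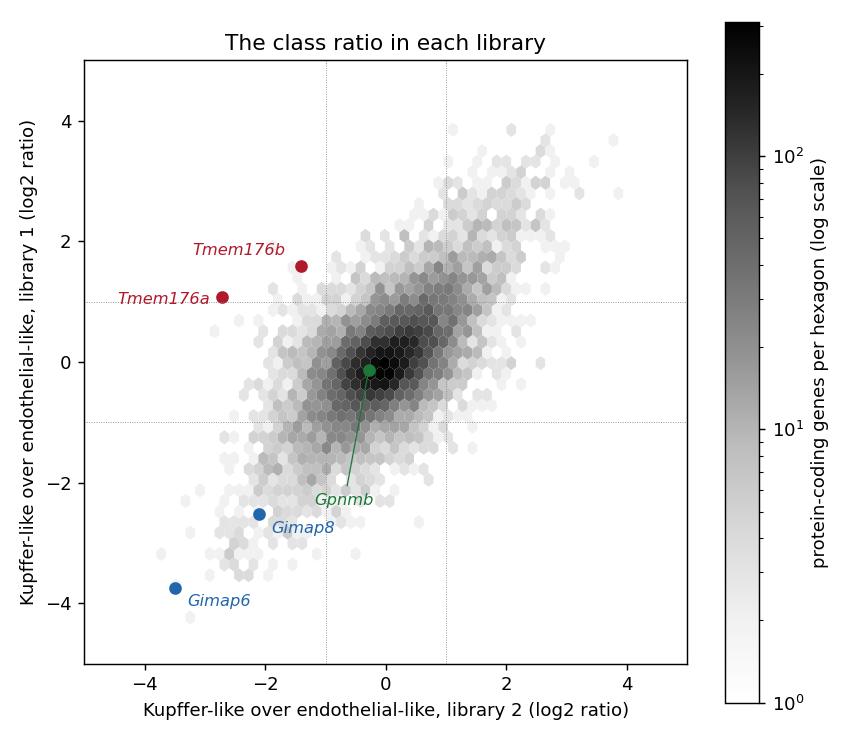
Log2 ratio of Kupffer-like over endothelial-like cells in library 2 (x axis) and library 1 (y axis) for protein-coding genes with enough fragments in both, as hexagons shaded by gene number on a log scale, with dotted lines at -1 and 1. Tmem176a and Tmem176b lie at the upper left, toward endothelial-like cells in library 2 and Kupffer-like cells in library 1, while Gimap6 and Gimap8 lie at the lower left.

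Among the neighbouring genes, those with enough fragments for a class ratio in both libraries, Gimap6, Gimap8 and Gpnmb, were not past 1 on opposite sides. At lower coordinates lies a cluster of 8 Gimap genes, GTPases known from lymphocytes and endothelium. Gimap6 had 19 fragments in Kupffer-like and 126 in endothelial-like cells of library 2 and 39 and 148 in library 1, and its log2 ratio was -3.50 (-4.31 to -2.83) in library 2 and -3.74 (-4.30 to -3.24) in library 1. Gimap8 had -2.10 (-3.00 to -1.31) in library 2 and -2.53 (-3.37 to -1.73) in library 1. Both were more open in endothelial-like cells of each library. Library 2 over library 1 in endothelial-like cells, where the pair was at 1.63, Gimap8 was at 0.07 (-0.59 to 0.75), Gimap6 at -0.48 (-0.83 to -0.13), Gimap4 at -0.87, Gimap5 at -0.90 and Gimap1 at -0.98. Gimap9, Gimap7 and Gimap3 had too few fragments for a ratio.

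On the other side the nearest genes had too few fragments for any ratio. Gm7932, the nearest, had 18 fragments each in Kupffer-like and endothelial-like cells of library 2, or 4.49 and 8.04 CPM, and 16 and 2 in library 1, or 2.76 and 1.24 CPM. Doxl1 had 10 and 18 in library 2, or 2.50 and 8.04 CPM, and 10 and 2 in library 1, or 1.73 and 1.24 CPM. On these few fragments both genes, like the pair, were higher in endothelial-like cells of library 2 than in those of library 1 and changed class side, but unlike the pair they were not lower in Kupffer-like cells of library 2. Aoc1, Doxl2 and Svs1 had at most 13 fragments in any of the 4 sums. Gpnmb, a glycoprotein gene of macrophages and pigment cells, had class ratios whose intervals include 0 before masking. Its class ratio (log2) was -0.28 (-0.75 to 0.20) in library 2, against -0.13 (-0.86 to 0.72) in library 1. Library 2 over library 1, Gpnmb was at 1.38 (0.91 to 1.87) in Kupffer-like and 1.52 (0.80 to 2.37) in endothelial-like cells. With piled-up fragments of single cells masked, these were 1.07 and -0.24, and the class ratio was 1.03 in library 2 and -0.27 in library 1. The ratio between libraries in endothelial-like cells and the class ratio in library 2 thus changed sign under the masking. Within 20 kb of the pair the annotation also lists the pseudogene Gm17834, with 40, 44, 9 and 10 fragments in Kupffer-like cells of libraries 2 and 1 and endothelial-like cells of libraries 2 and 1, and the lncRNA Gm44764, with 52, 34, 33 and 6. The Gm17834 window encloses the stretch 23.4 kb before the start, so most of its fragments are the 35, 36, 8 and 9 already given there.

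Lists of related genes were set beside the pair, each by counts of members past a log2 ratio of 1. The minimum of 50 fragments is over both compared sums together. A member can therefore pass through the side where it is high, which shapes the counts and medians given here and below. Of 18 MS4A relatives, 5 had enough fragments for the class ratio in library 2, with 3 higher and 1 lower in Kupffer-like cells and a median of 1.77, where 10.8% of all genes were higher and 9.77% lower. In library 1, 14 had enough, with 11 higher and 1 lower and a median of 2.52, where 12.1% of all genes were higher and 9.46% lower. Ms4a6c, for example, passed with 134 Kupffer-like and 2 endothelial-like fragments. The median over all genes is 0 in each ratio. Ms4a6c and Ms4a4b, genes of myeloid and lymphoid cells, had the largest library 1 ratios at 3.92 and 3.65, and Ms4a10 at -2.75 and Ms4a15 at 0.15 the smallest. Ms4a10 was on the endothelial-like side in library 2 too, at -2.28 (-3.00 to -1.63). None of the 5 with a ratio in both libraries was past 1 on opposite sides.

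In Kupffer-like cells of library 2, set over those of library 1, 6 of 14 MS4A relatives were lower by 1 or more, 0 were higher and the median was -0.85, against 3.01% of all genes lower and 9.13% higher. The 12 Kupffer markers were all below 0 in this ratio too, from -1.23 for Cd163 to -0.15 for Fcna. Lower values there were thus not particular to this list or to the 2 lists below. Ms4a6c had 23 fragments in library 2 and 134 in library 1 and a log2 ratio of -1.72 (-2.45 to -1.10). The other 5, named after their values were seen, were Ms4a13, Ms4a6b, Ms4a4b, Ms4a4c and Ms4a6d, between -1.84 and -1.27. Of the 6, only Ms4a6d had 50 fragments in library 2, and the rest reached the minimum through library 1. The filter thus favours members that are high in library 1, and the counts only describe the list.

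Of 16 genes of the inflammasome and interleukin 1, 7 were higher and 1 lower in Kupffer-like cells in library 2, among 14 with enough fragments, and 7 were higher and 1 lower of 16 in library 1, with medians of 0.88 and 0.12. Over all genes 10.8% were higher and 9.77% lower in library 2, and 12.1% and 9.46% in library 1. The interleukin 1 receptor antagonist Il1rn had 2.12 in library 2 and 3.84 in library 1, the inflammasome sensor Nlrc4 2.76 and 3.34, the receptor Il1r1 -1.22 and -1.28, and the decoy receptor Il1r2 -0.79 and -0.71. Each kept its side. Library 2 over library 1 in Kupffer-like cells, 3 of 16 were lower and 0 higher, against 3.01% and 9.13% of all genes, with a median of -0.30. They were Il1rn at -1.05, the inflammasome adaptor Pycard at -1.11 and the pore-forming Gsdmd at -1.15, named after their values were seen. In endothelial-like cells 1 of 9 was lower and 0 were higher, against 2.52% and 7.79% of all genes.

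Of 15 genes of the MHC class II compartment and dendritic cell maturation, 14 had enough fragments. In Kupffer-like cells 8 were higher and 0 lower in library 2, and 11 were higher and 0 lower in library 1, with medians of 1.21 and 1.98, against 10.8% of all genes higher and 9.77% lower in library 2 and 12.1% and 9.46% in library 1. The costimulatory gene Cd86 had 1.68 in library 2 and 3.84 in library 1, the lysosomal protease Ctss 0.98 and 3.48, the peptide editor H2-DMa 0.40 and 0.17, and its inhibitor H2-Ob 1.31 and 0.55. Library 2 over library 1 in Kupffer-like cells, 4 of 14 were lower and 0 higher, against 3.01% and 9.13% of all genes, with a median of -0.73. The Kupffer markers were below 0 in this ratio as well. The 4, named after their values were seen, were the class II chain H2-Aa at -1.75 (-2.36 to -1.22), Ctss at -1.28, the invariant chain Cd74 at -1.15 and H2-Ab1 at -1.08. H2-Aa had 32 fragments in library 2 and 189 in library 1. In endothelial-like cells Cd86 was the 1 of 8 that was higher, at 1.92 (1.25 to 2.70), and 0 were lower, against 7.79% of all genes higher and 2.52% lower.

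Fragments of the pair window were sorted by length, since fragments of 150 bases or less come mostly from DNA free of nucleosomes. They made up 77.6% (63.4 to 88.2%) in Kupffer-like cells and 54.7% (42.7 to 66.2%) in endothelial-like cells of library 2, and 62.3% (55.5 to 68.7%) and 70.0% (45.7 to 88.1%) in library 1. The interval of the first lies narrowly above the 62.6% over all fragments of those cells, and the other 3 intervals include their class's own share of 63.8%, 60.5% and 64.0%. That interval treats the 49 fragments as independent, although a single cell gave 11 of them, so no excess of short fragments is claimed.

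Away from the locus, 5 genes had levels most like those of the pair window over 9 class-by-library sums, by Pearson's r of log2 levels among 17815 genes. They were the rhomboid-related Rhbdd3 (0.94), the respiratory complex I subunit Ndufa1 (0.93), the actin-capping Capg (0.93), the transcription factor Myc (0.90) and Apc2 (0.88). This measure compares the shape over the sums and not the size of the differences. Rhbdd3 was nearly flat, at 48.4 and 53.2 CPM in Kupffer-like and endothelial-like cells of library 2 and 56.1 and 47.6 in library 1. Capg had 40.7 and 50.0 CPM in Kupffer-like and endothelial-like cells of library 2, and 69.4 and 36.5 in library 1. Myc had 35.7 and 52.3 in library 2 and 84.7 and 30.3 in library 1. In these 3 genes, as at the pair, Kupffer-like cells of library 1 had the highest of the 4 sums and endothelial-like cells of library 2 came next. That order was turned round in Ndufa1, at 3.99 and 7.59 CPM in library 2 and 6.05 and 4.33 in library 1, and in Apc2, at 14.2 and 48.7 in library 2 and 28.3 and 14.8 in library 1. The sums share libraries and depth, and r is a description.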

How the data were processed

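Single-cell ATAC-seq was measured in 2 libraries. The deposited table lists each unique fragment with its barcode and a count of read pairs, and a table per barcode gives the counts of unique fragments and, as other whole numbers, fragments in peaks and the authors' cell call. Cell Ranger ATAC 1.2.0, R 3.6.1, Signac 0.2.4 and build GRCm38.p5 are named per the submitters' processing notes. Gene positions and promoters come from RefSeq tables of GRCm38.p6.

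Called cells were kept when 1000 or more fragments and no less than 15% fell in peaks and no more than 5% in blacklisted regions. Each library was clustered alone (5 kb bins without chromosome 6, TF-IDF, singular value decomposition, Leiden at resolution 0.5; scanpy 1.11.5, leidenalg 0.10.2), because clustering both together left Kupffer-marked cells of library 2 unnamed. Clusters were named from marker lists. Doublets marked (10 cells of library 2, 7 of library 1) were kept. Fragments were summed by class and library, and ratios add 0.5 to each sum and subtract the ratio of the median protein-coding gene with 50 or more fragments. Ratios have exact conditional binomial 95% intervals, levels exact Poisson and shares Clopper-Pearson ones. The masked counts leave out a cell's own fragments in any 20 kb region where it had at least 10 fragments and 10 times its expected number. Fragments of other cells in that region stay. The code was tested on simulated data.

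Named genes are the pair, genes within 20 kb, the nearest protein-coding genes within 200 kb, the 2 highest and 2 lowest of each list by the library 1 class ratio, and the 5 genes most like the pair. The members and lists were chosen with earlier results of these data known. Alternatives covered filters, windows, scaling, clustering and thinning.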

Additional observations from a re-analysis of the deposited data

Results flagged for a closer look

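The Kupffer-like over endothelial-like log2 ratio of the Tmem176 pair had opposite signs in the libraries, at -1.41 in library 2 and 1.60 in library 1. Equally, library 2 over library 1, it was -1.36 in Kupffer-like and 1.63 in endothelial-like cells. With 1 library on each side, these differences were not tested.

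Barcodes that were not called as cells also carried fragments of the pair window, above the limit that a count of 0 allows. Library 2 had 187 such fragments in 85 barcodes, or 19.7 CPM (17.0 to 22.8), with 28 in a single barcode. Library 1 had 48, or 25.1 CPM (18.5 to 33.2).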

How the results depend on the processing

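The 4 ratios of the pair window were recomputed under 21 alternatives, of which 15 were planned and 6 were added after the data were seen. None reversed. The planned scaling by fragments in peaks could not move the ratios, because subtracting the ratio of the median gene cancels the scaling total. An added alternative used that scaling without the median gene. It gave class ratios of -1.46 in library 2 and 1.55 in library 1. Library 2 over library 1, it gave -1.2 in Kupffer-like and 1.8 in endothelial-like cells. The Kupffer-like over endothelial-like ratio stayed between -2.22 and -0.60 in library 2 and between 1.08 and 1.97 in library 1, and library 2 over library 1 it stayed between -1.65 and -0.65 in Kupffer-like and between 0.71 and 1.98 in endothelial-like cells. Gene bodies without flanks, which leave out the stretch 8.8 kb before the start, gave -2.22 for the library 2 class ratio. Thinning to 5000 fragments per cell gave -0.60 (-1.67 to 0.50) for that ratio and 0.71 (-0.58 to 2.19) between libraries in endothelial-like cells. Both intervals include 0, and the cause was not tested. In Kupffer-like cells the ratio between libraries was -0.73 with classes set from the marker fragments of single cells, where the cause was not tested, and -0.65 with 20 kb flanks, which take in the stretch 23.4 kb before the start. Shifting the 1 kb grid by 500 bases gave -4.48 and 0.66 at the shared start for the class ratio in libraries 2 and 1. With no minimum of fragments, 13.5% of genes were lower in the library 2 class ratio. No replicate could be left out, and no paired analysis was possible because each genotype has 1 library. Depth limits the endothelial-like sum of library 1, with 20 fragments, and the Kupffer-like sum of library 2 at the shared start, with 7.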
